A study of Sus scrofa with 9 samples.

Results

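The macrophage genes described here are those annotated to C1QA, C1QB, C1QC, AIF1, CD163, CD68 or CSF1R on a porcine Affymetrix array, a set of 7 symbols of genes known to be expressed in macrophages. Of the 7 symbols, 4 had a probe set here and 3 (C1QB, CD68 and CSF1R) drop out, which left 5 of the 24123 probe sets: 1 each for C1QA, C1QC and AIF1, and 2 for CD163. All 5 passed the filter on dim signals, whose level lay between 82.1 and 94.2 on the 9 arrays and which kept 15519 probe sets and 5670 genes.

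The samples were mammary gland biopsies of Large White sows, taken in late pregnancy (day -17 relative to farrowing, within 2 days), on day 1 and at peak lactation (day 17, for which the labels also give a tolerance of 2 days, written around -17). Each of 6 sows was biopsied 3 times. Every array holds equal volumes of RNA from a pair of sows, and 3 such pools per day gave 9 arrays. No treatment was given and no group carries a genetic change. Day 1 and day 17 are set against day -17, and day 17 against day 1. A pool averages 2 sows, so p-values measure the spread between pools and not that between animals, and all pools come from the same 6 sows.

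Macrophages are phagocytes that live in most tissues, and in the mammary gland they lie along ducts and alveoli, where they clear dying cells and debris and take part in the remodelling of the gland over the reproductive cycle. Macrophages are a main source of C1q, the molecule that starts the classical complement pathway when it binds antibody or dying cells. CD163 is their scavenger receptor for complexes of haemoglobin and haptoglobin, and AIF1 is a calcium-binding protein of their actin cytoskeleton. In a biopsy, fewer cells of a type and less RNA per cell cannot be told apart.

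The deposited values are linear signal intensities that share 1 scaled mean, so every difference is relative to the average signal of its array. The array's own hybridization controls, 21 probe sets against E. coli RNA, give another scale, on which all log2 differences are lower by 0.43 for day 1 against day -17, by 0.87 for day 17 against day 1 and by 1.30 for day 17 against day -17. The ratio of the 3' to the 5' actin probe set, a sign of RNA quality and labelling, was 14.5 to 15.9 on day 17 and 8.39 to 9.57 on day 1, against 7.01 to 7.26 on day -17. The same ratio for GAPDH ran the other way, at 1.77 to 1.98 on day 17 and 2.25 to 2.32 on day 1, against 2.38 to 3.06 on day -17. The part of these ratios in the results below was not tested. Of 10 epithelial markers 7 passed the filter, among them EPCAM and CLDN3, so epithelial genes were present. Of 24 further macrophage markers 16 were on the array and 11 passed the filter.

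Among the day 1 arrays, pool 1 stood apart in these genes. It was the highest of the 3 day 1 pools for 3 of the 4 macrophage genes, for 10 of the 11 other macrophage markers and for 14 of 16 complement genes, whereas it was highest for 29.6% of all 5670 genes. It was also highest for 7 of 8 fibroblast, 6 of 8 adipocyte, 6 of 7 endothelial and 5 of 6 T and NK cell markers. For the 7 epithelial markers it was highest in 0 and lowest in 6, whereas it was lowest for 46.5% of all genes. S100A12, a neutrophil and monocyte protein, had a signal of 114 in that pool and of 2.83 and 4.12, under the filter level, in pools 2 and 3 of day 1. Its day -17 signals were 135, 43.0 and 111. PGLYRP1, the other neutrophil marker tested, went the other way on day 1, with 20793 in pool 1, against 24987 and 24549 in pools 2 and 3. Pool 1 of day -17 also stood out within its own day for other lists: it was the highest there for 9 of 11 other macrophage markers, 12 of 16 complement, 7 of 8 fibroblast and 8 of 8 adipocyte genes and the lowest for 7 of 7 epithelial markers. Over all genes it was the highest there for 30.2% and the lowest for 44%. Its summed epithelial signal was 16219, against 34052 and 30677 in pools 2 and 3 of day -17. The summed signals of the 4 macrophage genes were closer on day -17, at 11174, 11313 and 10069, but C1QC made up most of these sums. The highest day -17 pool exceeded the lowest 1.07-fold for C1QC and 1.19-fold for C1QA. This ratio was 1.69 for AIF1 and 1.64 for CD163 (brighter probe set), against a median of 1.30 over all genes. The comparisons of the macrophage genes that involve day 1 are given with and without day 1 pool 1, and so are the counts of other lists where it moves them.

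**Figure D1:**
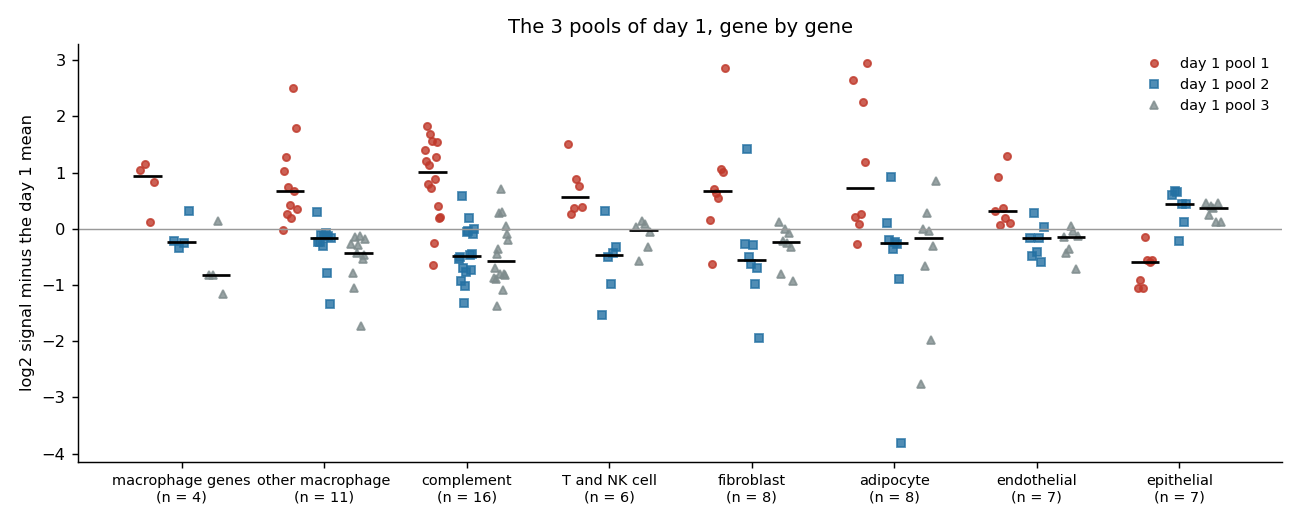
Log2 signal minus the gene's day 1 mean (y axis) for each gene of 8 lists, in day 1 pool 1 (red circles), pool 2 (blue squares) and pool 3 (grey triangles), with a bar at the median. Pool 1 lies above the other pools for 10 of 11 other macrophage markers and below them for 6 of 7 epithelial markers. Over all 5670 genes it was the highest for 29.6% and the lowest for 46.5%.

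The genes of both C1q chains measured were lower at peak lactation than in late pregnancy. C1q is built from A, B and C chains, encoded by 3 neighbouring genes that lie next to each other in the order C1QA, C1QC, C1QB in the Sscrofa11.1 annotation. C1QC (Entrez gene 445460) had signals of 6851, 6875 and 6445 in pools 1, 2 and 3 of day -17, of 8339, 2967 and 2120 on day 1, and of 2561, 3085 and 2060 on day 17. The 3 pools of day -17 were nearly alike, all 3 pools of day 17 lay below them, and day 1 spanned both, with pool 1 above every other array and pools 2 and 3 in the range of day 17. C1QA (Entrez gene 445461) had signals of 1523, 1298 and 1279 on day -17, of 2118, 885 and 584 on day 1, and of 671, 810 and 583 on day 17. Its order of arrays was much the same: day 17 did not overlap day -17, and day 1 pool 1 was again the highest of all 9.

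On day 17, C1QC averaged 2569 ± 513 (SD, n = 3 pools), against 6724 ± 242 on day -17. That is a 2.65-fold lower level (log2 difference -1.41 ± 0.40, standard error; adjusted p = 0.0151 by limma across all probe sets). C1QA averaged 688 ± 114 on day 17, against 1367 ± 135 on day -17 (log2 difference -0.999 ± 0.37, 2.00-fold lower, limma adjusted p = 0.0485). Both were lower in all 3 pairs of pools with the same number, which follows from days that did not overlap. Of the 4 macrophage genes 2 were thus called lower and 0 higher, at a background of 23.8% of all genes called lower, 23.8% called higher and 47.6% called either way. The median log2 difference of the 4 genes was -0.95, against -0.03 over all genes.

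The call for C1QC was lost without day 17 pool 3 (adjusted p = 0.0562), and that for C1QA, close to the threshold, ended without any 1 of 7 arrays (all but day 1 pools 1 and 3, adjusted p up to 0.134) and under 4 other settings given with the closing remarks. In a fit of only the 6 arrays compared both stayed called (limma adjusted p = 0.000167 for C1QC and 0.0013 for C1QA). With 1 array left out the limma adjusted p went as low as 0.000149 for C1QC and 0.00202 for C1QA. On the E. coli scale the differences were -2.71 for C1QC and -2.30 for C1QA. Fibroblast markers moved beside them: 6 of 8 fell and 0 rose, where 23.8% of all genes fell and 23.8% rose. Their summed signal was 23719 to 26178 on day 17, against 50819 to 80138 on day -17. Of 8 adipocyte markers 4 fell and 2 rose, with a median log2 difference of -2.45. Their mean log2 signal was 7.18 to 7.57 on day 17, against 8.63 to 10.64 on day -17. Their sums, on which the brightest genes weigh most, ran the other way, at 28991 to 29368 on day 17, against 9499 to 25969 on day -17. The part of fibroblasts and adipocytes in the fall of C1q was not tested.

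**Figure D2:**
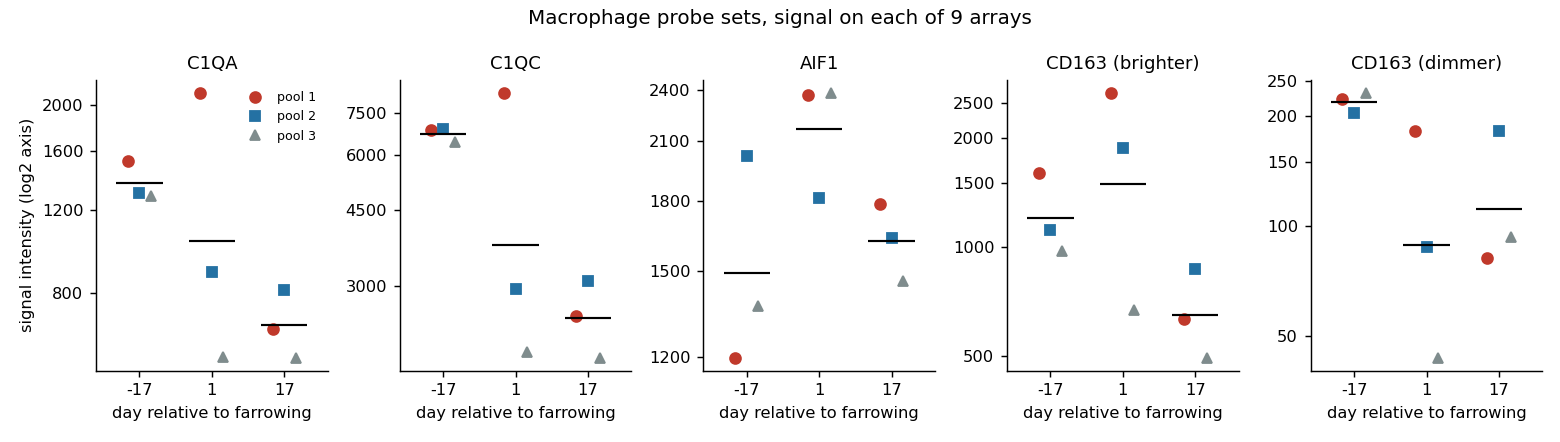
Signal intensity (y axis, log2 scale, each panel on its own range) of the 5 macrophage probe sets on days -17, 1 and 17 (x axis), with 1 point per array shaped and coloured by pool number and a bar at the mean of the log2 values. C1QA and C1QC are lower in all 3 pools of day 17 than in all 3 of day -17, and on day 1 pool 1 lies far above pool 3 for C1QA, C1QC and both CD163 probe sets.

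On day 1 the C1q chains could not be placed. C1QC averaged 4475 ± 3373 on day 1, against 6724 ± 242 on day -17 (log2 difference -0.84 ± 0.40, 95% confidence interval -1.72 to 0.04, limma adjusted p = 0.146). C1QA averaged 1196 ± 813 on day 1, against 1367 ± 135 on day -17 (-0.40 ± 0.37, -1.23 to 0.42, limma adjusted p = 0.458). The highest day 1 pool exceeded the lowest 3.93-fold for C1QC and 3.63-fold for C1QA, against a median of 1.38-fold over all genes on that day, while on day -17 the same ratios were 1.07 and 1.19. Without day 1 pool 1, both chains fell, by 1.42 for C1QC (limma adjusted p = 0.000826) and by 0.92 for C1QA (0.0109). Without day 1 pool 3 the differences went the other way, to -0.43 for C1QC (0.451) and to 0.0068 for C1QA (0.993). Of pools with the same number, pool 1 had a log2 difference of 0.28 for C1QC, whereas pools 2 and 3 had -1.21 and -1.60. For C1QA these were 0.48, -0.55 and -1.13. Day 17 against day 1 was not called for either chain (C1QC -0.56 ± 0.40 and C1QA -0.60 ± 0.37), and without day 1 pool 1 these differences were 0.015 for C1QC and -0.08 for C1QA.

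Across arrays the C1q signals ran together. C1QA and C1QC had a Pearson r of 0.97 in log2 signal over the 9 arrays and of 0.99 after each day's mean was subtracted, given as a description, since the arrays share 3 days, 1 scaling and the same sows. The log2 distance of the C1QC probe set above that of C1QA nevertheless differed by day, at 1.82 to 1.93 on day 17 and 1.75 to 1.98 on day 1, against 2.17 to 2.41 on day -17, with no overlap with day -17. Such a distance shows only that the 2 signals changed unequally. Neither gene had a second probe set that could be set beside it.

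**Figure D3:**
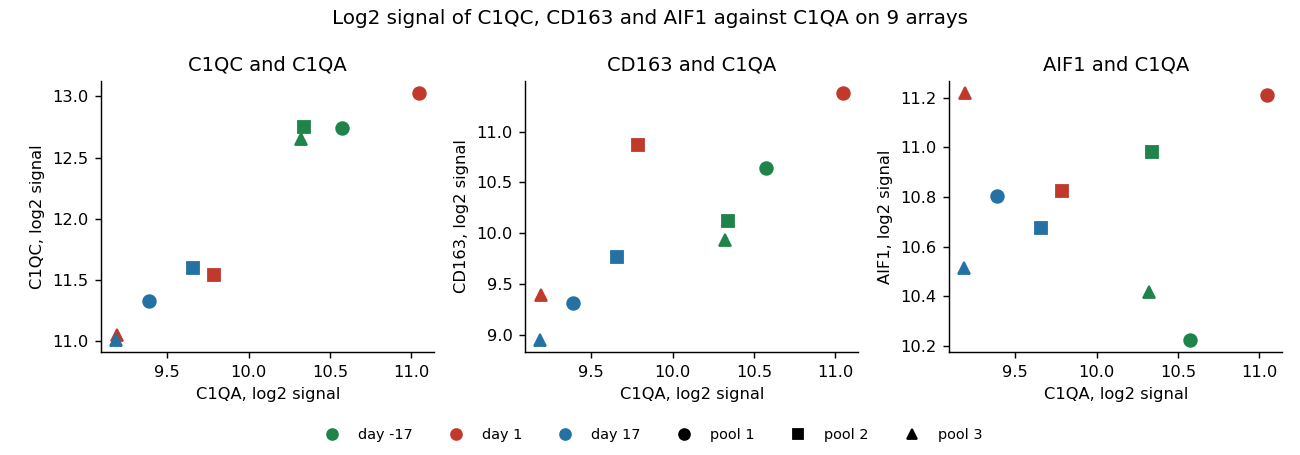
Log2 signal of C1QC, CD163 (brighter probe set) and AIF1 (y axes) against log2 signal of C1QA (x axes) on the 9 arrays, coloured by day and shaped by pool number. C1QC follows C1QA closely (r 0.97), CD163 less closely (r 0.84) and AIF1 shows no such order (r -0.02).

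CD163 (Entrez gene 397031) was measured by 2 probe sets that did not tell the same story on day 1. The brighter had signals of 1603, 1117 and 976 on day -17, of 2659, 1874 and 672 on day 1, and of 635, 869 and 496 on day 17. All 3 pools of day 17 lay below those of day -17, and day 1 held both the highest array and one of the lower ones. The dimmer had signals of 223, 205 and 232 on day -17, of 182, 87.6 and 43.6 on day 1, and of 81.9, 182 and 93.5 on day 17. Here all pools of both lactation days lay below day -17, and day 1 pool 3 was the lowest. This probe set stood between the 30.0 and 56.2 percentile of its array, so it lay partly under the filter level, and the brighter one between 72.7 and 94.6.

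Both probe sets had lower means on day 17 than on day -17, with a log2 difference of -0.89 ± 0.43 for the brighter (95% confidence interval -1.86 to 0.07, limma adjusted p = 0.115) and of -0.97 ± 0.48 for the dimmer (-2.04 to 0.09, adjusted p = 0.118). Neither was called in the fit of all 9 arrays. With pools of the same number fitted as fixed blocks the brighter passed (limma adjusted p = 0.0303), and 3 of the 4 macrophage genes were then called, against 51.8% of all genes. With a random block it did not pass (0.0784). In a fit of only the 6 arrays compared both probe sets passed (0.0167 and 0.0328), and without day 1 pool 3 the brighter did (0.0196). Whether CD163 and the C1q chains differ in their change was not tested. In signals, the brighter averaged 667 ± 188 on day 17, against 1232 ± 329 on day -17.

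For day 1 against day -17 the probe sets had opposite signs, 0.31 ± 0.43 for the brighter and -1.31 ± 0.48 for the dimmer (limma adjusted p = 0.631 and 0.0716). Without day 1 pool 1 the brighter turned to -0.10 (adjusted p = 0.872) and the dimmer fell by 1.83 (0.0101). For day 17 against day 1 they were -1.20 ± 0.43 and 0.33 ± 0.48 (limma adjusted p = 0.0908 and 0.678). Without day 1 pool 1 these were -0.79 and 0.85, both not called, and the brighter reached adjusted p = 0.0109 without day 1 pool 3. The change of CD163 around farrowing therefore depends on which probe set is read, and which of the 2 follows the transcript better was not tested.

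AIF1 (Entrez gene 397271) was not called at any step and had its highest signals on day 1. It had signals of 1197, 2023 and 1369 on day -17, of 2370, 1811 and 2380 on day 1, and of 1786, 1633 and 1460 on day 17. The highest values were those of day 1, whose pools 1 and 3 lay above all other arrays, while day -17 spanned the lowest value and a value above every day 17 pool. The log2 difference was 0.54 ± 0.20 for day 1 against day -17 (95% confidence interval 0.10 to 0.98, limma adjusted p = 0.0732) and -0.42 ± 0.20 for day 17 against day 1 (-0.86 to 0.02, adjusted p = 0.184). Day 17 against day -17 gave 0.12 ± 0.20 (-0.32 to 0.56, adjusted p = 0.644). AIF1 was called in none of the 3 comparisons, but for day 1 against day -17 it passed without day -17 pool 2 (log2 difference 0.76, adjusted p = 0.0176) and after median centring (0.66, adjusted p = 0.0317). Its day 1 pools differed 1.32-fold from lowest to highest, so day 1 pool 1 was not apart in this gene, and without it the differences were 0.48 for day 1 against day -17 and -0.36 for day 17 against day 1, both not called. On the E. coli scale day 17 lay below day -17 (-1.18, limma adjusted p = 0.000272), the opposite sign. The median of all genes on that scale was -1.34, and 87.0% of all genes were called.

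Across the 4 genes, limma thus called 0 for day 1 against day -17, where 25.7% of all genes were called, and 0 for day 17 against day 1, where 16.6% were. At an unadjusted p under 0.05 there was 1 in each, AIF1 in the first and CD163 in the second. For day 17 against day -17 the 3 pools of one day all lay below those of the other for 3 of 4 genes (C1QA, C1QC and CD163), at a background of 30.6% of all genes. The F test over the 3 days called C1QC alone (adjusted p = 0.0380), 1 of 4, at a background of 47.8%. Without day 1 pool 1 the count for day 1 against day -17 was 2, at a background of 31.7% of all genes in that fit.

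**Figure D4:**
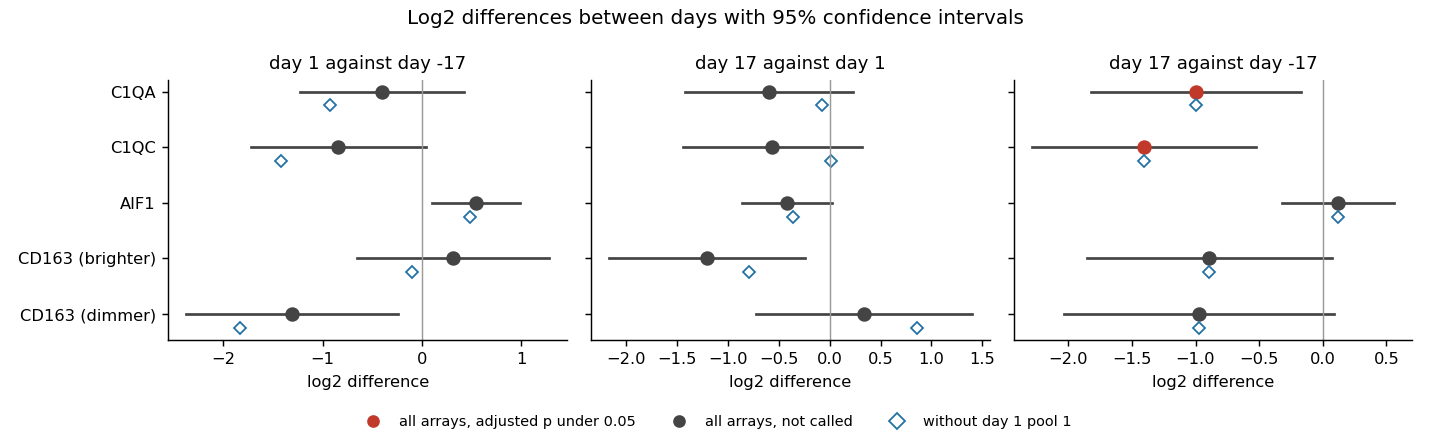
Log2 differences (x axes) of the 5 macrophage probe sets in the 3 comparisons, with 95% confidence intervals from limma. Red circles were called at an adjusted p of 0.05 (C1QA and C1QC for day 17 against day -17), grey circles were not, and open diamonds give the value without day 1 pool 1, which moves C1QC to -1.42 for day 1 and to 0.015 for day 17 against day 1.

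On the reported scale, other macrophage markers did not share 1 direction. Of 11 tested for day 17 against day -17, 3 rose, 1 fell and 7 did not pass, where 47.6% of all genes were called. On the E. coli scale 0 rose and 8 fell, where 87.0% of all genes were called. The median log2 difference of the 11 was 0.08 (-0.03 after quantile normalization and -1.22 on the E. coli scale), against -0.95 for the 4 macrophage genes on the reported scale. GPNMB, a glycoprotein of lipid-laden and phagocytic macrophages, had signals of 1238, 888 and 1108 on day -17, of 962, 465 and 430 on day 1, and of 274, 241 and 278 on day 17. It fell in all 3 comparisons, although the first call ended after quantile normalization and after median centring (adjusted p = 0.0588 and 0.064), with log2 differences of -0.89 ± 0.28 for day 1 against day -17, -1.13 ± 0.28 for day 17 against day 1 and -2.02 ± 0.28 for day 17 against day -17 (limma adjusted p = 0.0421, 0.0257 and 0.000339). FOLR2, a folate receptor of resident macrophages, ran the other way, with 2242, 811 and 1308 on day -17, 4344, 3621 and 3476 on day 1, and 5683, 5948 and 4189 on day 17. It rose by 1.51 ± 0.30 on day 1 (adjusted p = 0.00667) and stood 1.97 ± 0.30 higher on day 17 than on day -17 (limma adjusted p = 0.000657; 0.66 and not called on the E. coli scale). For day 1 against day -17, 2 of the 11 rose and 1 fell (median 0.05), and without day 1 pool 1 these were 2 and 3 (median -0.46). For day 17 against day 1, 0 rose and 1 fell (median -0.25), and 2 and 1 without that pool (median 0.10). The shares of all genes called in these 2 comparisons were 25.7% and 16.6%, and 31.7% and 15.7% without that pool.

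Of the ligands, adaptors and transcription factors that act with CSF1R or set the myeloid fate, 7 of 16 were tested. On day 17, 2 of these stood higher and 4 lower than on day -17, and 1 did not pass (median -0.74), where 47.6% of all genes were called. HCST, an adaptor of activating receptors, rose by 0.77 ± 0.19 (limma adjusted p = 0.00772; -0.53 on the E. coli scale), and CEBPB, a C/EBP transcription factor also active in mammary epithelium, fell by 0.74 ± 0.14 (adjusted p = 0.00227). CEBPB had already fallen on day 1, by 0.62 ± 0.14 (limma adjusted p = 0.0126), the only 1 of the 7 called then. Without day 1 pool 1 there were 3 of the 7 lower on day 1 and 0 higher (median -0.65, against -0.40 with it). The share of all genes called on day 1 was 25.7% with that pool and 31.7% without it. HCST rose between day 1 and day 17, by 1.04 ± 0.19 (limma adjusted p = 0.00786; 0.17 and not called on the E. coli scale). TYROBP, the adaptor through which several macrophage receptors signal, had signals of 788, 892 and 844 on day -17, of 847, 533 and 262 on day 1, and of 361, 368 and 305 on day 17. Its log2 difference for day 17 against day -17 was -1.29 ± 0.34 (limma adjusted p = 0.0104).

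Complement genes other than those of C1q were split on day 17. Of 16 tested against day -17, 4 rose, 6 fell and 6 did not pass, with a median of -1.06, where 47.6% of all genes were called. On the E. coli scale 0 rose and 12 fell (median -2.37), where 87.0% of all genes were called and the median of all genes was -1.34. CFB, factor B of the alternative pathway, fell, with log2 differences of -2.49 ± 0.47 against day -17 (limma adjusted p = 0.0021) and -2.90 ± 0.47 against day 1 (0.00548), but its signals of 57.6, 52.8 and 25.2 on day 17 lay under the filter level, which leaves the size of these differences uncertain. CD55, which shields cells from complement, rose by 1.68 ± 0.21 from day -17 (limma adjusted p = 0.000213; 0.38 and not called on the E. coli scale) and by 1.77 ± 0.21 from day 1 (0.00172). For day 1 against day -17, 1 of the 16 rose and 0 fell, where 25.7% of all genes were called. Without day 1 pool 1 these were 1 and 4, where 31.7% of all genes were called. Set against day 1, on day 17 there were 2 higher and 1 lower, with and without that pool (medians -0.22 without it and -0.61 with it). The share of all genes called was 15.7% without it and 16.6% with it.

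Lysosomal and phagocytic genes were called in both directions. Of 25 tested for day 17 against day -17, 6 rose, 13 fell and 6 did not pass (median -0.64), where 47.6% of all genes were called. On the E. coli scale 0 rose and 19 fell, where 87.0% of all genes were called. CTSC, a lysosomal protease that activates serine proteases of leukocytes, rose by 1.29 ± 0.13 (limma adjusted p = 4.86e-05; -0.014 on the E. coli scale), and CD63, a tetraspanin of late endosomes, fell by 1.04 ± 0.11 (adjusted p = 7.59e-05). Epithelial cells also make most proteins of this list. For day 1 against day -17, 4 rose and 3 fell (4 and 9 without day 1 pool 1), and for day 17 against day 1, 5 rose and 3 fell (5 and 4 without that pool, with medians of 0.02 without it and -0.16 with it). The shares of all genes called in these 2 comparisons were 25.7% and 16.6%, and 31.7% and 15.7% without that pool.

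Genes that handle haem and iron, the cargo of CD163, numbered 5 tested, of which 3 rose and 0 fell for day 17 against day -17 (median 0.73, and -0.57 on the E. coli scale). In that comparison 47.6% of all genes were called. HP, which encodes the haptoglobin that CD163 takes up with haemoglobin, was 7.24 ± 0.39 higher on day 17 than on day -17 (limma adjusted p = 1.16e-06) and 7.52 ± 0.39 higher on day 1 (2.49e-06), with 2 of its 3 day -17 signals under the filter level. FTL, the light chain of ferritin, was 1.15 ± 0.10 higher on day 17 (adjusted p = 2.76e-05; -0.15 on the E. coli scale).

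**Figure D5:**
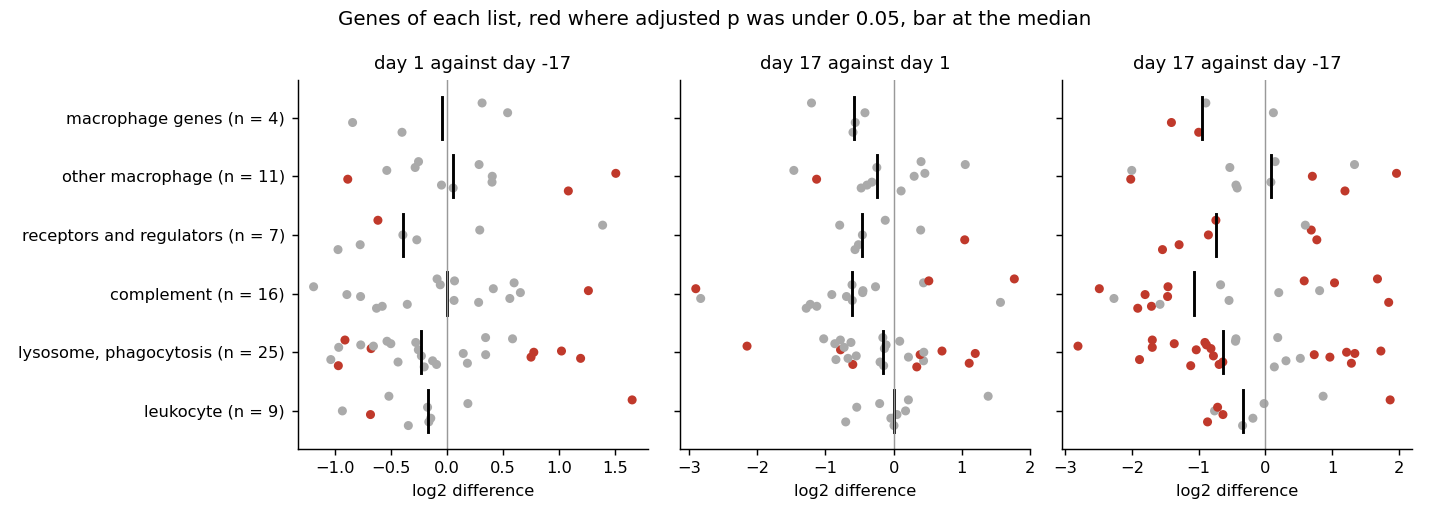
Log2 differences (x axes) of single genes in the 4 macrophage genes and 5 further lists for the 3 comparisons, red where the limma adjusted p was under 0.05 and grey otherwise, with a bar at each list's median. For day 17 against day -17 the medians are -0.95 for the macrophage genes, 0.08 for other macrophage markers and -1.06 for complement.

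Markers of other leukocytes went several ways for day 17 against day -17, where 47.6% of all genes were called (87.0% on the E. coli scale). Of 9 genes shared by most leukocytes, 1 rose and 3 fell (median -0.34): VAV1, a signalling protein of blood cells, rose by 1.87 ± 0.24 (limma adjusted p = 0.000198) and LCP1, an actin-bundling protein, fell by 0.64 ± 0.17 (0.0131). None of the 6 markers of T and NK cells was called by limma (0 up and 0 down, 1 at an unadjusted p under 0.05, median -0.46; on the E. coli scale 4 fell, and after quantile normalization, after median centring or without day 1 pool 1, 1 rose; CD8A -0.67 ± 0.32 and KLRK1 -0.49 ± 0.39). Of 4 markers of B and plasma cells and of antibody transport, 4 rose (2 rose and 1 fell on the E. coli scale), among them JCHAIN, the joining chain of IgA and IgM, by 1.85 ± 0.22 and PIGR, the epithelial carrier of these antibodies, by 5.30 ± 0.16. Of 2 neutrophil markers PGLYRP1 rose by 4.49 ± 0.20 and S100A12 did not pass (-3.03 ± 1.51). All 3 day 17 signals and 1 day -17 signal of S100A12 lay under the filter level, so the size of its difference is uncertain. Of 2 mast cell markers KIT and MS4A2 both fell (-0.94 ± 0.24 and -2.45 ± 0.73), MS4A2 to signals under the filter level. CD83 was the only dendritic cell marker tested and did not pass (0.12 ± 0.34, and -1.18 on the E. coli scale).

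In the other cell types, RBP4 and GPD1 of the adipocyte list fell to signals under the filter level on day 17, so no size is given for their differences. RBP4 had 6.33, 7.46 and 8.54 on day 17, against 1017, 352 and 581 on day -17, and GPD1 had 34.7, 56.6 and 29.1 on day 17, against 846, 204 and 651 on day -17. The collagen gene COL1A2 and LUM, a proteoglycan of the matrix, fell as well (-1.37 ± 0.24 and -1.21 ± 0.26). Of 7 endothelial markers 0 rose and 1 fell, where 47.6% of all genes were called. VWF stood at -0.83 ± 0.34 and TIE1 at -0.70 ± 0.26, both not called. Of 7 epithelial markers 3 rose and 2 fell, with EPCAM 1.65 ± 0.19 and CLDN3 2.28 ± 0.29 higher (0.35 and 0.98 on the E. coli scale, where EPCAM was not called). How far these lists bear on the macrophage genes was not tested.

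The genes whose log2 signals ran most like each macrophage gene over the 9 arrays were named among 5514 candidates, as a description. For C1QA these were LYVE1 (r 0.97), a hyaluronan receptor of lymphatic endothelium and of some resident macrophages, GMFG (0.96), an actin regulator of leukocytes, and TPCN2 (0.95), an ion channel of lysosomes. For C1QC they were WLS (0.98), a carrier of secreted Wnt proteins, GMFG again (0.97) and TYROBP (0.96). LYVE1 had signals of 1724, 507 and 603 on day -17, of 3170, 324 and 167 on day 1, and of 202, 280 and 145 on day 17. GMFG had 502, 600 and 616 on day -17, 781, 359 and 232 on day 1, and 294, 344 and 271 on day 17. Both were highest in day 1 pool 1, as the C1q chains were, which a choice by likeness over these same arrays favours. For CD163 the nearest were RBMS1 (0.97), an RNA-binding protein, MARCH3 (0.94), a ubiquitin ligase, and RSU1 (0.93), a suppressor of Ras signalling. For AIF1 they were UBXN2B (0.93), MARCH5 (0.92), a mitochondrial ubiquitin ligase, and SGK1 (0.88), a kinase induced by steroid hormones. No gene was near to both AIF1 and a C1q chain by this rule. All of these values share the 9 arrays, and day 1 pool 1 weighs on those of C1QA, C1QC and CD163.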

How the data were processed

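Mammary RNA of 9 pools (3 on each of days -17, 1 and 17) was hybridized to porcine Affymetrix arrays. The authors deposited linear signal intensities, and the submitters' processing notes name MAS5 (its version is not given in the sources used here). The mean after trimming 2% at each end was 500.088 to 500.112 on every array. The number of arrays limits the precision.

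By the platform annotation, 10099 probe sets carry 1 symbol, 198 several (unnamed here) and 13826 none listed. The 124 control probe sets were left out, and a probe set was tested if at or above the 40th percentile in at least 3 arrays. Log2 signals of all 9 arrays were fitted with limma 3.58.1 in R 4.3.3 (day as the only term, eBayes with an intensity trend), two-sided, with Benjamini-Hochberg adjustment over 15519 probe sets and a threshold of 0.05. A gene is given by its brightest tested probe set, errors of log2 differences are standard errors, and n is 3 pools per day. With 3 pools a day, the smallest exact permutation p for a single gene is 0.1. On simulated data of this layout, 88 of 100 probe sets changed by 2 on the log2 scale were called for day 17 against day -17. Of 100 changed by 1, 41 were called when day 1 was compared with day -17 and 40 when day 17 was compared with day 1. Only 100 of the 15519 simulated probe sets changed by each size, a far smaller share than was called in the data. The adjustment was therefore stricter in the simulation, so these counts do not give the recovery in the data.

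The labels do not say if a pool number follows 1 pair of sows. Deviations from the day mean correlated across probe sets at 0.235 to 0.506 between same-numbered pools for day 1 and day -17, at 0.105 to 0.130 for day 17 and day -17 and at 0.096 to 0.107 for day 17 and day 1. The numbers were taken to pair pools in the first 2 of these, although the last 2 ranges hardly differ. The reported fit leaves this pairing out, and it enters only as the block of the alternatives. For day 17 against day -17 the fixed block called 3 of the 4 macrophage genes, against 51.8% of all genes. The random block called 2, as the reported fit did. The block in the alternatives enters every comparison, so also day 17 against day 1, where pairing was not taken as given.

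The members and the 15 context lists were chosen with earlier results of these data known. Named are all macrophage probe sets, the 2 genes of each list with the smallest F test p, and the 3 genes with the highest Pearson r to each macrophage gene. Alternatives were quantile normalization, median centring, E. coli scaling (21 probe sets), a pseudocount of 16, no filter, a 60th percentile filter, no trend, the 6 compared arrays, fixed and random blocks, a mean over probe sets and each array left out.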

Additional observations from a re-analysis of the deposited data

How the results depend on the processing

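The number of the 4 macrophage genes called for day 17 against day -17 was 2, and became 1 without an intensity trend, without a filter, after quantile normalization or after median centring (C1QA was lost, adjusted p = 0.0718, 0.0572, 0.0621 and 0.0546). It was 3 with the fixed replicate block or in a fit of only the 6 arrays compared, 2 with the random block and 4 with E. coli scaling, where 87.0% of all genes were called. Leaving out 1 array gave 0 to 3. For day 1 against day -17 the count was 0, but 1 after median centring or E. coli scaling (46.3% of all genes in the second) and 0 to 2 with an array left out. For day 17 against day 1 it was 0, but 4 with E. coli scaling (77.3% of all genes), 1 with the fixed replicate block (CD163, limma adjusted p = 0.024, 21.2% of all genes, though pool numbers were not taken to pair these days) and 0 to 1 with an array left out. For any difference among the days it was 1, but 2 after median centring or with the fixed replicate block, 4 with E. coli scaling, 0 without an intensity trend and 0 to 3 with an array left out. Signs that turned were those of CD163 for day 1 against day -17 (-0.12 with E. coli scaling, -0.50 as a mean over probe sets, -0.10 without day 1 pool 1), C1QA in that comparison (0.0068 without day 1 pool 3), C1QC for day 17 against day 1 (0.015 without day 1 pool 1), AIF1 for day 17 against day -17 (-1.18 with E. coli scaling, -0.038 without day -17 pool 1) and the dimmer CD163 probe set for day 17 against day 1 (-0.54 with E. coli scaling, -0.18 without day 1 pool 3, -0.019 without day 17 pool 2). With an array left out these values ran, in the order named, from -0.10 to 0.89, from -0.92 to 0.0068, from -0.97 to 0.015, from -0.038 to 0.34 and from -0.18 to 0.85. Of all genes called on day 1 against day -17, 14.2% were higher with E. coli scaling and 73.1% after median centring (which moved the median of all genes to 0.12), against 59.5% in the reported fit. With E. coli scaling this share was 0.935% on day 17 against day 1 (48.4% reported) and 3.63% on day 17 against day -17 (50% reported). E. coli scaling lowers every value by a fixed amount by construction, and the cause of the other changes was not tested. Beside CD163 with the fixed block, the replicate block changed no call of a macrophage gene between days.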
